A study of Mus musculus with 2 samples.

Results

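The genes described here build the cornified envelope and the barrier of the epidermis. They were chosen by symbol, as every row of the count tables that starts with Sprr (15 small proline-rich genes) or Lce (21 late cornified envelope genes) and 20 further genes of envelope assembly, shedding and cell contact, which gives 56 of 31053 rows. The rule uses symbols and no measured value. They were followed in 2 single-cell RNA libraries of mouse back-skin wounds taken on day 5 after wounding. Both libraries carry the labels Mrc1-DTR for genotype and C57BL/6 for strain, with mice aged 7 to 9 weeks, and differ in the treatment, which was PBS in the library called PBS here and diphtheria toxin in the library called DTX. In Mrc1-DTR mice the promoter of Mrc1, which encodes the macrophage receptor CD206, drives the toxin's receptor, so that keratinocytes are not its intended target. Live cells were sorted from wounds pooled from 3 mice per group, so each condition is 1 library and no difference between mice can be estimated.

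Keratinocytes of the basal layer contain keratins 5 and 14. When they leave it they switch to keratins 1 and 10, and further up they fill with keratohyalin and keratinosomes, lose their nucleus and become flat, dead corneocytes. Under their membrane, transglutaminases cross-link involucrin, loricrin, small proline-rich and late cornified envelope proteins into an insoluble shell, filaggrin bundles the keratin filaments, and secreted lipids seal the spaces between the cells. Kallikreins then cut the corneodesmosomes so that corneocytes are shed, and the inhibitor encoded by Spink5 holds them in check. In a healing wound the edge keratinocytes also switch on keratins 6 and 16, and keratin 79 marks the upper part of the hair follicle.

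Most of these genes lie in a single stretch of chromosome 3, the epidermal differentiation complex, from Lor at position 92080271 to the end of Hrnr at 93333570 on the GRCm38 build. To show what the start sites of these genes look like, 6 promoter windows from RefSeq (GRCm38.p6), each 250 bases before to 50 bases after the annotated start, are printed 5′ to 3′ on the strand of the gene. Capitals mark matches on either strand to TGANTCA, the letters of an AP-1 site, and to TATAAA. Sprr1b (chr3:92438730-92439029, minus strand) and Sprr2h (chr3:92385435-92385734, plus strand) stand for the Sprr genes that were higher in Krt1/Krt10-high cells, Sprr2a3 (chr3:92285054-92285353, plus strand) for the member with the opposite order in the PBS library, Lor (chr3:92083093-92083392, minus strand) and Lce3c (chr3:92944236-92944535, plus strand) for envelope genes held by few and by many cells, and Krtdap (chr7:30787655-30787954, plus strand) for a member outside the complex.
Sprr1b: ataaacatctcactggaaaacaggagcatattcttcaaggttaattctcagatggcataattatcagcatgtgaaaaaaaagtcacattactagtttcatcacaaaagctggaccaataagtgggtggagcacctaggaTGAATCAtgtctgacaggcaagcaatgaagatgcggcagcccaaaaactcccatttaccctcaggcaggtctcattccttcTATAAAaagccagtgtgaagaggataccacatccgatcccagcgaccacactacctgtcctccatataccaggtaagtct
Sprr2h: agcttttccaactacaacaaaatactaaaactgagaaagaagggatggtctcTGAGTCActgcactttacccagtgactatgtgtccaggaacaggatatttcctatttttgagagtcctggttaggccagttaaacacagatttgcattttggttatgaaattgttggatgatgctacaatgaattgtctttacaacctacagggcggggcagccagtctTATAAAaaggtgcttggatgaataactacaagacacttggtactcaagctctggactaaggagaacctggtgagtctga
Sprr2a3: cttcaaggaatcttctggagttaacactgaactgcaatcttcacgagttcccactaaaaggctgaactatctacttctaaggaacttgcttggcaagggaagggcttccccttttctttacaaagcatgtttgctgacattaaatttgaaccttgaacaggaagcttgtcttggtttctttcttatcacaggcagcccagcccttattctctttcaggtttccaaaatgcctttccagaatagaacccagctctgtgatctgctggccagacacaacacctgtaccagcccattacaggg
Lor: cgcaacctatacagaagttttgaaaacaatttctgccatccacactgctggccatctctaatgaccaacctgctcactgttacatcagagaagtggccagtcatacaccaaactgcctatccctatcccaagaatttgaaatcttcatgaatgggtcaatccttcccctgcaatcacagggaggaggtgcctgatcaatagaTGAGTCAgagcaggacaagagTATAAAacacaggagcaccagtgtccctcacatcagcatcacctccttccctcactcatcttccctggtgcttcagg
Lce3c: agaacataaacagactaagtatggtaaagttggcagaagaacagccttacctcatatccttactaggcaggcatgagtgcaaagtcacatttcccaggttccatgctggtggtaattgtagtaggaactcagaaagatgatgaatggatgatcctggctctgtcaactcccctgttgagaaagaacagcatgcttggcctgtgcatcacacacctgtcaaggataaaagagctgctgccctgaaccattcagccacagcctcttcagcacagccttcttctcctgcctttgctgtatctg
Krtdap: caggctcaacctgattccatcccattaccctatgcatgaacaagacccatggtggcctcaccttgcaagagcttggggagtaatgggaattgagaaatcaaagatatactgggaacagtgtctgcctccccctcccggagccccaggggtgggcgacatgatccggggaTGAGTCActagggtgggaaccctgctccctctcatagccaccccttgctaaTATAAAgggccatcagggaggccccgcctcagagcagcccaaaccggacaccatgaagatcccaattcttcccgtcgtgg

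A window was found for 49 of the 56 genes. Of these 49 genes 15 (30.6%) had a window with TGANTCA, beside 7.81% of all 32851 RefSeq promoter windows. For TATAAA it was 20 genes (40.8%), beside 13.6% of all windows. Both occurred together in a window of 13 genes (26.5%) and in 1.54% of all windows. The first shares count genes, of which Cdsn and Tgm1 had more than a single window, and the second count windows. The 13 were Flg, Ivl, Krtdap, Lor, Sprr1a, Sprr1b and 7 Sprr2 genes (Sprr2b, Sprr2d, Sprr2e, Sprr2f, Sprr2h, Sprr2i and Sprr2k). In the windows of these 7 Sprr2 genes TATAAA began at the same place, -29 from the annotated start. None of the 20 Lce windows held TGANTCA, and neither did that of Sprr2a3. The Sprr2a3 window ends at 92285353, however, before the start of that gene in the GENCODE annotation, 92285417. The bases next to that start were thus not searched. These counts describe letters in a window and were not tied to binding.

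The deposited PBS library held 12058 cells with 105511870 UMIs (unique molecular identifiers, which count RNA molecules) and the DTX library 11031 cells with 81858751 UMIs. After cells with fewer than 500 genes, with more than 6% of UMIs from mitochondrial genes or called doublets were left out, 7944 PBS cells (median 9580 UMIs) and 6613 DTX cells (median 7286) were used, and 37 barcodes occurred in both libraries. The limit on mitochondrial UMIs left out 2620 PBS cells with 146177 UMIs of the 56 genes, against 834522 kept, and 2992 DTX cells with 114453, against 136547 kept. In macrophage-like cells the level of Mrc1 was 494 CPM (UMIs per 1000000 UMIs of the group, not divided by gene length because the reads come from the 3′ end, 95% exact Poisson interval 479 to 510, 1696 cells) in the PBS library and 430 CPM (423 to 437, 4419 cells) in the DTX library, so the label DTX did not go with a loss of Mrc1 there. The study measured depletion otherwise, as numbers of CD206-positive macrophages by flow cytometry and staining, which it reports as reduced. From its single-cell data it also reports a much smaller share of C1qa-positive macrophages in depleted wounds, a subcluster with relatively high Mrc1. The Ccl7-positive subcluster, also with relatively high Mrc1, is reported as a larger share there. A level over all macrophage-like cells does not separate these subclusters. The study's methods describe the control mice as wild type and given the toxin, and the cell numbers it gives for its groups are the reverse of the labelled libraries. The composition of the libraries did differ, with 4419 macrophage-like and 235 keratinocyte-like of 6613 DTX cells and 1696 and 2066 of 7944 PBS cells. By the labels this has the direction that the study reports for depleted wounds, with a larger share of immune cells and fewer epithelial cells. Directions between libraries are given by the labels as deposited. All intervals are 95% and cover counting error only.

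Keratinocyte-like cells formed 2 clusters led by epithelial keratins, with 2066 PBS and 235 DTX cells. They were divided by keratins, none of which is among the 56 genes. Cells with at least 5 Krt79 UMIs per 10000 were called Krt79-high (553 PBS and 99 DTX cells). The others with at least 20 UMIs of Krt1, Krt10, Krt5 and Krt14 were called Krt1/Krt10-high where Krt1 and Krt10 made up at least 0.5 of these UMIs (421 and 42 cells), Krt5/Krt14-high below 0.1 (911 and 85) and intermediate in between (145 and 4). The remaining 36 PBS and 5 DTX cells with fewer of these keratin UMIs were left unassigned. Of the 20 listed genes, 18 had at least 97.7% of their PBS UMIs in keratinocyte-like cells, and Sbsn and Tgm1 had 94.8% and 92.4%. Of the 56 genes, 49 had at least 50 UMIs in keratinocyte-like cells of both libraries together (10 Sprr, 19 Lce and the 20 listed genes) and are described by name. Sprr2a1, Sprr2a2, Sprr2b, Sprr4, Lce3a and Lce3b had 2 to 33 UMIs in keratinocyte-like PBS cells and 0 to 6 in DTX cells, and Sprr3 had none in either library.

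The 56 genes together took 0.209% of the UMIs of Krt5/Krt14-high cells in the PBS library, 1.24% of intermediate, 3.39% of Krt1/Krt10-high and 7.4% of Krt79-high cells. In the DTX library the shares were 0.211%, 1.18%, 2.73% and 6.48%. In both libraries the order of these states was thus the same. The unassigned cells were above them, at 8.6% in the PBS and 11.3% in the DTX library. Of these UMIs 6612 of 12023 and 1882 of 3628 lay in a single cell each. In Krt79-high cells, however, the listed gene Cst6 alone held 302695 of the 509419 UMIs of the 56 genes in the PBS library. In the DTX library it held 53066 of 100364. The share of Krt79-high cells was thus in large part that of this gene and does not describe the set as a whole. The Sprr genes took 1.12% in Krt1/Krt10-high and 1.04% in Krt79-high cells of the PBS library, the Lce genes 0.106% and 0.0282%, and the 20 listed genes 2.16% and 6.34%.

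**Figure D1:**
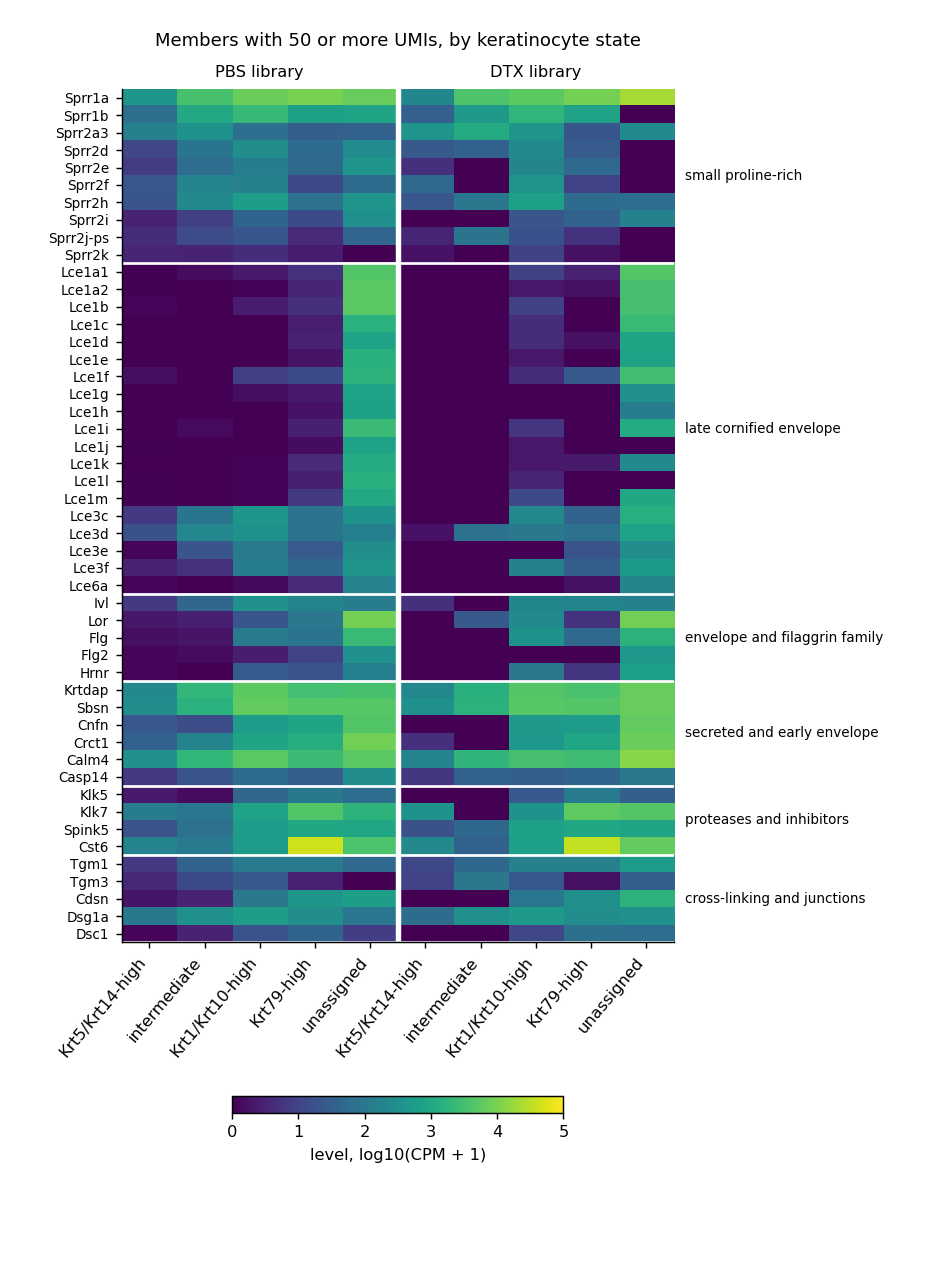
Level of the 49 genes with at least 50 UMIs in each keratinocyte state of each library, as a colour on a scale of log10(CPM + 1), with genes in rows by role and states in columns. Lor and the Lce1 genes reach their highest level in the unassigned cells (36 in the PBS and 5 in the DTX library), except Lce1j and Lce1l in the DTX library, with 1 and 2 UMIs in all. Sprr1a, Krtdap, Sbsn and Calm4 are at high levels in intermediate, Krt1/Krt10-high and Krt79-high cells alike. In the DTX library these genes, too, are highest in the 5 unassigned cells.

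The comparison of Krt1/Krt10-high with Krt5/Krt14-high cells sets cells with mostly suprabasal keratins beside cells with mostly basal keratins. Of the latter, 338 of 911 PBS and 54 of 85 DTX cells lay in the cluster led by Cst6, Krt79 and Klk7. Summed levels of 6 hair follicle markers were 1771 CPM in Krt5/Krt14-high and 473 in Krt1/Krt10-high PBS cells. In DTX cells they were 1367 and 273 CPM. The part of follicle cells in these ratios was not tested. A gene was compared where both groups together held at least 50 UMIs, and was called higher or lower where the ratio of levels, with 1 CPM added to each, was past 2-fold. In the PBS library 34 of the 56 genes could be compared, and 32 were higher and 1 lower in Krt1/Krt10-high cells. Of all 9194 genes compared, 7.4% were higher and 18.3% lower. The median log2 ratio was 4.21 over the 34 genes and -0.33 over all genes. Of 25 genes compared in the DTX library, 23 were higher and 0 lower, beside 8.48% higher and 19.3% lower of 4480 genes, with a median of 5.29. With 1 library per condition no test was possible, and the 25 genes of the DTX comparison were all among those compared in the PBS library. The 23 genes called higher in the DTX library were called higher in the PBS library too. Some of these DTX calls rest on 1 cell, which held all 215 Lor, 85 Hrnr and 78 Cdsn UMIs of Krt1/Krt10-high DTX cells. Without the richest cell of each gene and state, 17 of 20 genes compared in the DTX library were higher and 0 lower. The other 22 genes of the PBS library and 31 of the DTX library had too few UMIs to be compared. Within the other keratinocyte-like cluster alone, 26 of 28 genes were higher and 1 lower in the PBS library. In the DTX library 20 of 21 were higher there and 1 lower.

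**Figure D2:**
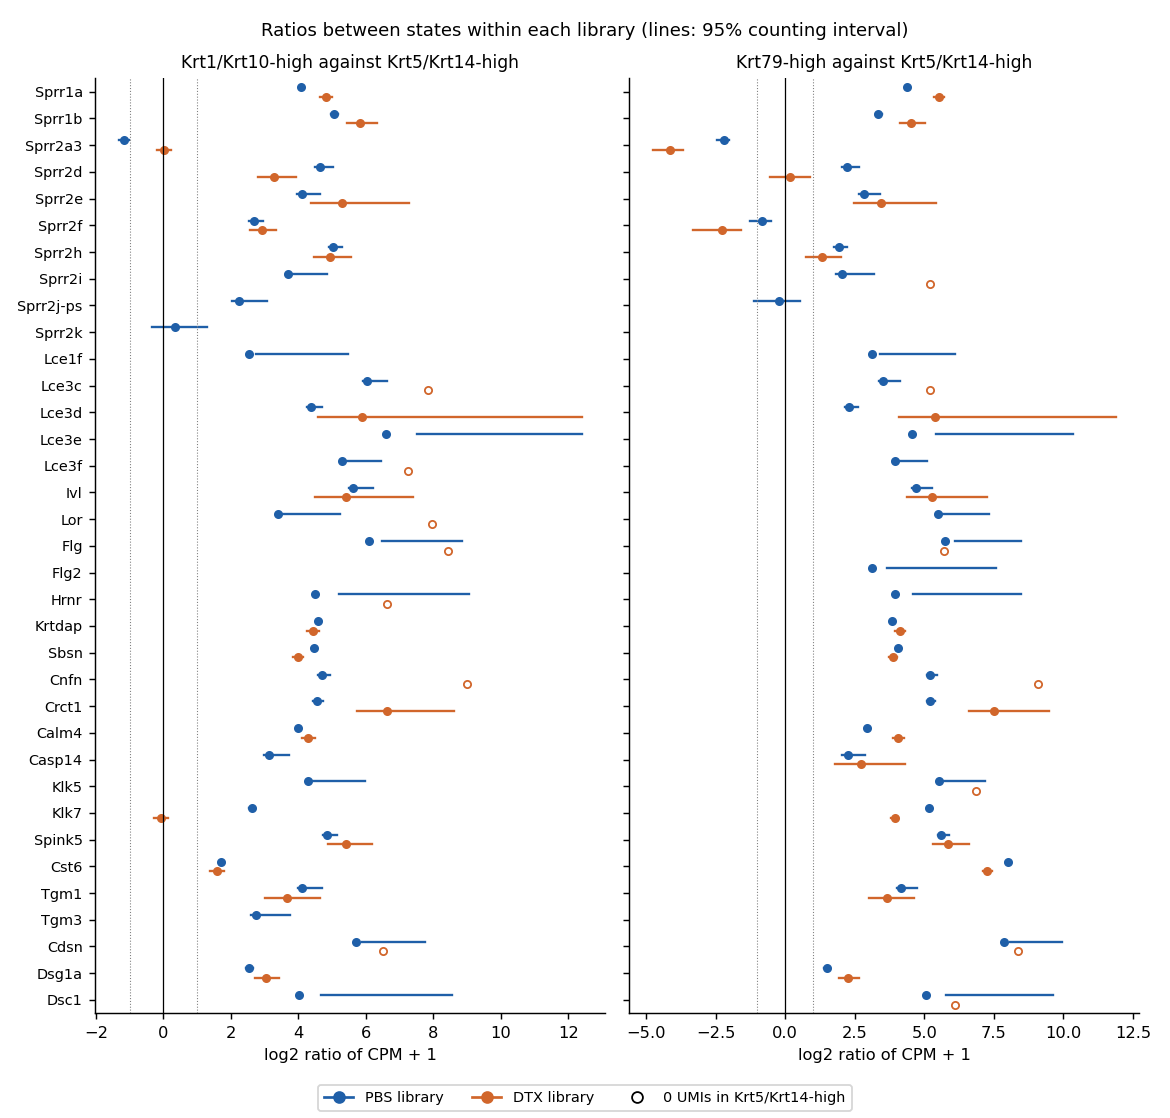
Ratio of levels between states within each library, as log2 of (CPM + 1), for Krt1/Krt10-high (left) and Krt79-high cells (right) against Krt5/Krt14-high cells. Points are genes, lines are 95% counting intervals of the ratio with nothing added (so points of genes with few UMIs can lie beside their line), open circles mark genes with 0 UMIs in Krt5/Krt14-high cells, and nearly all points of the left panel lie above the 2-fold line except Sprr2a3, Sprr2k and, in the DTX library, Klk7.

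The small proline-rich proteins are cross-linked into the envelope as short bridges between other envelope proteins. Sprr1a stood at 447 CPM in Krt5/Krt14-high, 3579 in intermediate, 7566 in Krt1/Krt10-high and 9424 in Krt79-high cells of the PBS library, and at 193, 4266, 5488 and 8956 CPM in the DTX library. Its log2 ratio between Krt1/Krt10-high and Krt5/Krt14-high cells was 4.08 (interval 4.04 to 4.12) in the PBS and 4.82 (4.65 to 5.01) in the DTX library. With every cell of at least 2000 UMIs thinned to 2000, it was detected in 95% of Krt1/Krt10-high and 22% of Krt5/Krt14-high PBS cells. It was also detected in 5.43% of fibroblast-like PBS cells, which should lack it. Without thinning it was detected in 417 of 421 and 421 of 911 of these keratinocytes. Sprr1b stood at 67.5 CPM in Krt5/Krt14-high, 2284 in Krt1/Krt10-high and 694 in Krt79-high cells of the PBS library and at 32.6, 1917 and 771 CPM in the DTX library. Unlike Sprr1a it was thus lower in Krt79-high than in Krt1/Krt10-high cells, by a log2 ratio of -1.72 (-1.77 to -1.67) in the PBS and -1.31 (-1.42 to -1.21) in the DTX library.

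The Sprr2 genes are near copies that lie side by side in the complex. Sprr2h, whose window with both motifs is printed above, stood at 18.7 CPM in Krt5/Krt14-high, 645 in Krt1/Krt10-high and 73.2 in Krt79-high cells of the PBS library and at 22.2, 705 and 57.5 CPM in the DTX library. Sprr2d, Sprr2e, Sprr2f and Sprr2i were likewise called higher in Krt1/Krt10-high cells of the PBS library (log2 ratios of 2.69 to 4.64) and lower again in Krt79-high cells (-3.52 to -1.25 against Krt1/Krt10-high cells). Sprr2j-ps, a pseudogene, had the same order, with 3.52, 20.4 and 2.91 CPM. Sprr2k, at 2.51 and 3.49 CPM in Krt5/Krt14-high and Krt1/Krt10-high PBS cells, was within 2-fold.

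Sprr2a3 was the exception of the family. In the PBS library it stood at 147 CPM in Krt5/Krt14-high, 348 in intermediate, 64.8 in Krt1/Krt10-high and 31.1 in Krt79-high cells, so that it was lower in Krt1/Krt10-high than in Krt5/Krt14-high cells (log2 ratio -1.17, -1.33 to -1.03). Its DTX levels were 381, 1182, 384 and 20.7 CPM, and its ratio between these states was 0.01 (-0.19 to 0.21). Its highest level was in intermediate cells in the PBS library (145 cells). The 4 intermediate DTX cells held 100 UMIs, 90 of them in 1 cell, and without that cell their level was 149 CPM, below that of Krt5/Krt14-high and Krt1/Krt10-high DTX cells. Over 5 bins of the share of Krt1 and Krt10 in PBS cells that were not Krt79-high, Sprr2a3 ran from 146 CPM at a share below 0.05 to 243, 364, 163 and 43.8 CPM in the bin of 0.8 to 1. Sprr2f was also highest in the middle bin, at 238 CPM and 159 CPM in the last, whereas 29 of 34 genes were highest in the last bin. Few cells carried Sprr2a3, with a UMI in 216 of 911 Krt5/Krt14-high PBS cells, 24 of which held 0.5 of its UMIs or more. Its call in the PBS library was within 2-fold when the scale was set by TMM factors (-0.84), the median of all genes then moving from -0.33 to -0.03, and its counts are uncertain, since 41.8% of the 91-base windows near its 3′ end also occur in other Sprr2a transcripts.

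The late cornified envelope genes split into the Lce3 genes, which are known to be induced in injured and inflamed epidermis, and the Lce1 genes of normal late differentiation. Lce3c stood at 5.86 CPM in Krt5/Krt14-high, 85.3 in intermediate, 452 in Krt1/Krt10-high and 78 in Krt79-high cells of the PBS library, and at 0, 0, 228 and 35.5 CPM in the DTX library. Lce3d stood at 16.2, 206, 361 and 84.1 CPM in the PBS and at 0.74, 70.9, 102 and 71.1 CPM in the DTX library. Both were thus low in Krt5/Krt14-high cells, and of these 4 states highest in Krt1/Krt10-high cells of the PBS library. The same order held for Lce3c in the DTX library, but for Lce3d 65 of the 88 UMIs of Krt1/Krt10-high DTX cells came from 1 cell, and without the richest cell of each state the levels were 27.4 CPM there and 34.8 CPM in Krt79-high cells. The 5 unassigned DTX cells stood at 1334 CPM for Lce3c and 745 CPM for Lce3d. Of their 43 Lce3c UMIs 42 came from 1 cell, and of their 24 Lce3d UMIs 23. Without the richest cell both genes were at 36.3 CPM in these cells. Lce3f (123 CPM in Krt1/Krt10-high PBS and 152 in DTX cells) was likewise highest there among the 4 states, and Lce3e was at 111 CPM in the PBS library but had 0 UMIs in the 42 Krt1/Krt10-high DTX cells. Against the 0 UMIs of Krt5/Krt14-high DTX cells, counted as 3, Lce3c was at least 102.8-fold and Lce3f at least 68.6-fold higher in Krt1/Krt10-high cells. In the PBS library Lce3c and Lce3d transcripts were spread over cells, in 130 and 108 of the 421 Krt1/Krt10-high cells. Of these, 16 and 14 cells held 0.5 of their UMIs. Lce3f was in 61 and Lce3e in 25 of the 421 cells, and 2 cells held 0.5 or more of the Lce3e UMIs. In the DTX library Lce3d was in 5 of the 42 Krt1/Krt10-high cells. Between 29.8% and 38.1% of the windows near the 3′ ends of Lce3c, Lce3d, Lce3e and Lce3f are shared among them, so the division of counts within the group is uncertain.

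The 14 Lce1 genes behaved differently, since nearly all of their UMIs lay in single cells. In the PBS library 1 unassigned cell held 4031 of the 4442 Lce1 UMIs of keratinocyte-like cells, and in the DTX library 1 unassigned cell held 656 of 771. Each library had 4 cells with at least 20 Lce1 UMIs, and these held 96.2% of Lce1 UMIs in the PBS and 96.6% in the DTX library. The richest PBS cell had 11583 UMIs from 1061 genes, of which 57.1% came from the 56 genes, with 973 UMIs of Lor, 730 of Lce1a2, 723 of Lce1b, 698 of Crct1 and 337 of Calm4, and 1 UMI each for Krt1 and Krt10 together and for Krt5 and Krt14 together. The richest DTX cell had 4681 UMIs from 841 genes, 40.2% of them from the 56 genes, with 241 UMIs of Lor. The richest cell of each library thus held many late envelope and few keratin transcripts, whereas others of the 4 did hold keratins, such as 249 UMIs of Krt1 and Krt10 and 231 of Krt79 in 1 DTX cell and 213 of Krt79 in 1 PBS cell. No barcode left out by the filters had 20 or more Lce1 UMIs, the highest being 11. Lce1f stood at 7.82 CPM in Krt1/Krt10-high and 12.2 in Krt79-high cells of the PBS library and 3.46 and 23.9 CPM in the DTX library. The other 13, from Lce1a1, Lce1a2, Lce1b, Lce1c, Lce1d, Lce1e and Lce1g to Lce1h, Lce1i, Lce1j, Lce1k, Lce1l and Lce1m, stood at 0 to 6.1 CPM in the 3 main states of the PBS library, and Lce6a, a late envelope gene outside these groups, at 0.17 to 3.2 CPM.

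**Figure D3:**
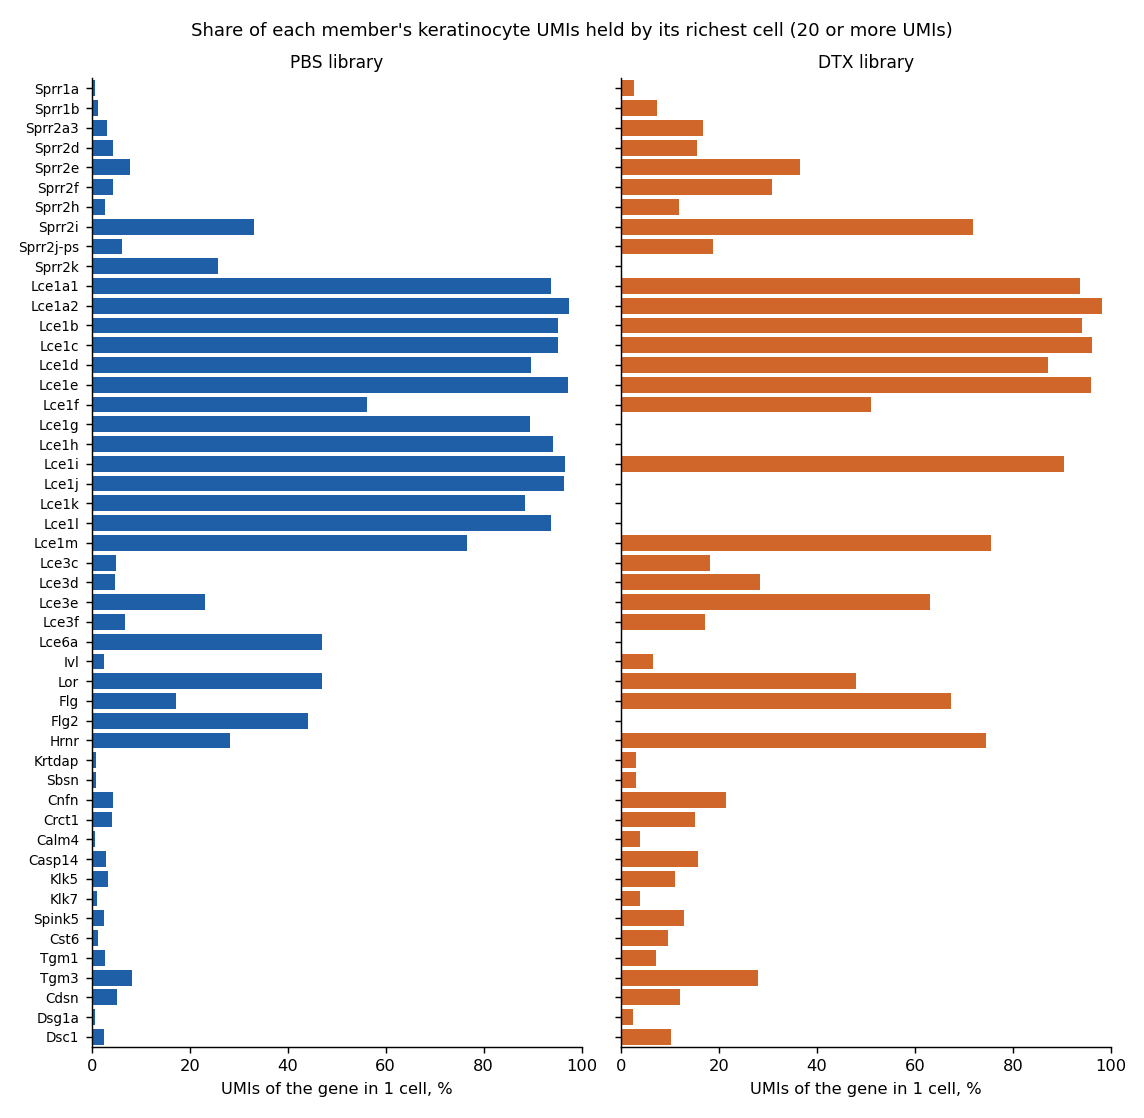
Share of the UMIs of each gene in keratinocyte-like cells that lay in the single cell with most of them, in percent, for genes with at least 20 UMIs in that library (PBS left, DTX right, bars from 0). The Lce1 genes lie near or above 50%, and Sprr1a, Krtdap, Sbsn and Dsg1a at or below 5% in both libraries.

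Of the envelope and filaggrin genes, Ivl, which encodes involucrin, an early scaffold of the envelope, stood at 5.86 CPM in Krt5/Krt14-high, 43.1 in intermediate, 337 in Krt1/Krt10-high and 178 in Krt79-high cells of the PBS library, and at 3.7, 0, 200 and 180 CPM in the DTX library. It was spread over many cells, with a UMI in 191 of 421 Krt1/Krt10-high PBS cells. Lor encodes loricrin, the bulk protein of the mature envelope, and stood at 1.09, 21.2 and 93.4 CPM in Krt5/Krt14-high, Krt1/Krt10-high and Krt79-high cells of the PBS library and at 0, 248 and 4.52 CPM in the DTX library. Lor was found in 14 of 421 Krt1/Krt10-high PBS cells and in 1 of 42 DTX cells, which held all 215 UMIs of that state. The 4 Lce1-rich cells of a library held 69.6% of the Lor UMIs of its keratinocyte-like cells in the PBS and 98.2% in the DTX library.

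Flg, the gene of filaggrin, stood at 0.59, 108 and 83.2 CPM in the same 3 states of the PBS library and at 0, 347 and 51 CPM in the DTX library, where 292 of its 301 Krt1/Krt10-high UMIs came from 1 cell. Hrnr, which encodes the related hornerin, stood at 0.25, 27.2 and 18.2 CPM and at 0, 98.1 and 5.17 CPM. Flg2 had 1.4 CPM in Krt1/Krt10-high and 9.73 in Krt79-high PBS cells and 0 UMIs in the main states of the DTX library. In the PBS library the Lce1-rich cells held only 11% of Flg and 12.8% of Hrnr UMIs, and in the DTX library 97.2% and 96.5%. The values of Lor, Flg and Hrnr in the DTX library thus describe a handful of cells, and their shares of cells were low in both libraries.

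Genes of early suprabasal cells were at high levels in nearly all of them. Krtdap, which encodes a secreted protein of differentiating keratinocytes, stood at 222 CPM in Krt5/Krt14-high, 2034 in intermediate, 5395 in Krt1/Krt10-high and 3200 in Krt79-high cells of the PBS library and at 207, 1465, 4502 and 3597 CPM in the DTX library (log2 ratio of Krt1/Krt10-high to Krt5/Krt14-high cells 4.60, 4.55 to 4.66, and 4.44, 4.27 to 4.63). Sbsn, the gene of the secreted protein suprabasin, stood at 281, 1557, 6183 and 4734 CPM and at 318, 1666, 5057 and 4690 CPM. Calm4, an epidermal calcium-binding protein of the calmodulin family, stood at 330, 1998, 5271 and 2513 CPM and at 170, 1867, 3367 and 2836 CPM. All 3 were already several-fold above Krt5/Krt14-high cells in intermediate cells. With every cell of at least 2000 UMIs thinned to 2000, Krtdap was detected in 15.1% (interval 12.8 to 17.6) of Krt5/Krt14-high and 97.9% (96 to 99) of Krt1/Krt10-high PBS cells. It was also detected in 3.35% of fibroblast-like and 6.03% of macrophage-like PBS cells, which should lack it. Without thinning the shares were 36.3% and 99.3% in the keratinocyte states.

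Cnfn, the gene of cornifelin, an envelope component, was at a low level in intermediate cells, at 21.6 CPM in Krt5/Krt14-high, 14.5 in intermediate, 583 in Krt1/Krt10-high and 839 in Krt79-high cells of the PBS library and at 0, 0, 509 and 549 CPM in the DTX library. In Krt5/Krt14-high PBS cells 230 of its 258 UMIs came from 1 cell. Crct1, a cysteine-rich gene of the complex, stood at 34.2, 178, 818 and 1302 CPM and at 3.7, 0, 468 and 850 CPM. Casp14, the caspase that takes part in filaggrin breakdown, stood at 5.78, 18.8, 58.8 and 31.7 CPM in the PBS library and at 5.18, 35.5, 32.3 and 39.4 CPM in the DTX library. Cnfn and Crct1 were thus higher in Krt79-high than in Krt1/Krt10-high PBS cells, by less than 2-fold. In Krt1/Krt10-high DTX cells 320 of 441 Cnfn UMIs and 297 of 406 Crct1 UMIs came from 1 cell each, and without the richest cell of each state the levels were 143 and 129 CPM there and 487 and 712 CPM in Krt79-high DTX cells.

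Of the shedding proteases and their inhibitors, Klk5 stood at 1.26, 43.5 and 102 CPM in Krt5/Krt14-high, Krt1/Krt10-high and Krt79-high cells of the PBS library and at 0, 25.4 and 114 CPM in the DTX library. Klk7, the chymotrypsin-like kallikrein of shedding, stood at 124, 766 and 4439 CPM in the PBS and at 373, 355 and 5695 CPM in the DTX library. The latter was thus higher in Krt1/Krt10-high than in Krt5/Krt14-high cells of the PBS library (log2 ratio 2.62, 2.54 to 2.71), with no such difference in the DTX library (-0.07, -0.28 to 0.14). Spink5, whose product inhibits these kallikreins, stood at 18.3, 559 and 940 CPM and at 16.3, 735 and 987 CPM. Cst6 encodes cystatin M/E, an inhibitor of cathepsins, and was at 170, 562 and 43972 CPM in the PBS library and at 223, 669 and 34276 CPM in the DTX library. Krt79-high cells held 302695 of the 309547 Cst6 UMIs of PBS keratinocyte-like cells. In Krt1/Krt10-high DTX cells 1 cell each held 284 of 637 Spink5, 339 of 580 Cst6, 153 of 308 Klk7 and 14 of 22 Klk5 UMIs. Without the richest cell of each gene the levels there were 417.5, 285, 183 and 9.46 CPM. Klk7 then stood at 274 CPM in Krt5/Krt14-high DTX cells. After thinning, Cst6 was detected in 16.6% of Krt5/Krt14-high, 41.6% of Krt1/Krt10-high and 81.2% of Krt79-high PBS cells, and the first of these shares was at the background given by fibroblast-like PBS cells, 16.6%.

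Tgm1, the membrane-bound transglutaminase of envelope cross-linking, stood at 5.78 CPM in Krt5/Krt14-high, 38.4 in intermediate, 117 in Krt1/Krt10-high and 119 in Krt79-high cells of the PBS library and at 11.1, 47.3, 152 and 151 CPM in the DTX library. Tgm3, a soluble transglutaminase, stood at 2.68, 12.4, 23.8 and 1.89 CPM in the PBS library and at 9.63, 94.5, 23.1 and 0.65 CPM in the DTX library, where it rests on 1 to 20 UMIs per state. Both were higher in Krt1/Krt10-high than in Krt5/Krt14-high PBS cells, but Tgm3 was nearly missing from Krt79-high cells, where Tgm1 was as high as in Krt1/Krt10-high cells. Among the genes of cell contact, Dsg1a, a desmosomal cadherin, stood at 104, 325, 610 and 295 CPM and at 58.5, 319, 486 and 284 CPM. Dsc1, another desmosomal cadherin, stood at 0.25, 2.13, 19.3 and 40.4 CPM and at 0, 0, 10.4 and 68.5 CPM. Cdsn, the gene of corneodesmosin, an adhesive protein of corneodesmosomes, stood at 0.92, 2.13, 98.9 and 449 CPM and at 0, 0, 90 and 329 CPM. For Cdsn, Lor and Flg the levels in Krt5/Krt14-high PBS cells were near those of fibroblast-like PBS cells, at 1.09, 0.71 and 0.26 CPM, and are read as background.

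Against Krt5/Krt14-high cells, Krt79-high cells had 30 of 33 genes higher and 1 lower in the PBS library, beside 8.44% higher and 8.12% lower of 9369 genes, with a median log2 ratio of 3.94. The DTX library had 23 of 26 higher and 2 lower (9.56% and 9.56% of 5379 genes), with a median of 4.86, or 4.08 with genes at 0 set to their bound. The lower genes were Sprr2a3 in both libraries and Sprr2f in the DTX library. Against Krt1/Krt10-high cells the genes divided. In the PBS library 7 of 34 were higher in Krt79-high cells and 15 lower, beside 11% and 4.44% of 8445 genes. The 7 were Cst6 (log2 ratio 6.29), Klk7 (2.53), Cdsn (2.17), Flg2 (2.16), Lor (2.09), Klk5 (1.21) and Dsc1 (1.03), of which Flg2 rests on 1 cell with 57 of its 67 Krt79-high UMIs, and the 15 were Calm4, Dsg1a, Tgm3, 8 Sprr genes and Lce3c, Lce3d, Lce3e and Lce3f. Of 29 genes compared in the DTX library 5 were higher, namely Klk7 (355 and 5695 CPM), Cst6 (log2 ratio 5.68), Dsc1 (2.61), Klk5 (2.12) and Cdsn (1.86), and 11 were lower, beside 12.1% and 4.7% of 4555 genes. All 5 were also among the 7 of the PBS library. Without the richest cell of each gene and state, 8 of 25 genes compared in the DTX library were higher and 8 lower. Among the 11 lower genes, a single cell held all 215 Lor, all 85 Hrnr and 292 of 301 Flg UMIs of Krt1/Krt10-high DTX cells. Lor had opposite signs in the libraries (2.09 in the PBS and -5.50 in the DTX library), on that cell and 7 UMIs in Krt79-high DTX cells. Sprr2i, lower in the PBS library, also had opposite signs, and all of its 56 UMIs in Krt79-high DTX cells lay in 1 cell. So did Casp14 and Tgm1 have opposite signs, both within 2-fold in each library. Leaving the keratins and these genes out of the total made it 12 lower genes in the PBS library.

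Within Krt79-high cells the genes did not move as a block. These cells were divided into 4 groups of equal size by their Cst6 UMIs per 10000, a division made after the data had been seen and described here without a test. Levels of Cst6 were taken on the full total and those of the other genes on a total without Cst6. From the lowest to the highest group Cst6 itself ran over 206, 6353, 37967 and 143797 CPM in the PBS library and 99, 3490, 25628 and 115793 CPM in the DTX library. Klk7 went from 1262 to 8870 CPM in the PBS and from 1159 to 11595 CPM in the DTX library. Sprr1a went from 2021 to 20052 and from 1657 to 20129 CPM, Cdsn from 1.68 to 1260 and from 0 to 1092 CPM, and Spink5 from 96.9 to 1935 and from 99 to 1927 CPM. These genes were highest where Cst6 was highest, in both libraries. Others were highest in the middle groups. Sprr1b ran over 286, 1269, 1036 and 202 CPM in the PBS and 115, 771, 1921 and 52.3 CPM in the DTX library. Ivl ran over 21.3, 191, 368 and 175 CPM and over 0, 200, 314 and 219 CPM. Lor ran over 2.24, 36.4, 346 and 5.2 CPM in the PBS library and had 0, 2, 5 and 0 UMIs in the DTX library. Of the 566 Lor UMIs at the PBS peak, 233 came from a single cell and 128 from another. The Lor peak thus rests largely on these cells. Along the same groups the basal keratin Krt14 went from 6572 to 2284 CPM in the PBS and from 7122 to 484 CPM in the DTX library. Krt79, by which these cells were chosen, went from 3343 to 14672 CPM and from 4113 to 16440 CPM. The groups thus differ in Krt79 as well as in Cst6.

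**Figure D4:**
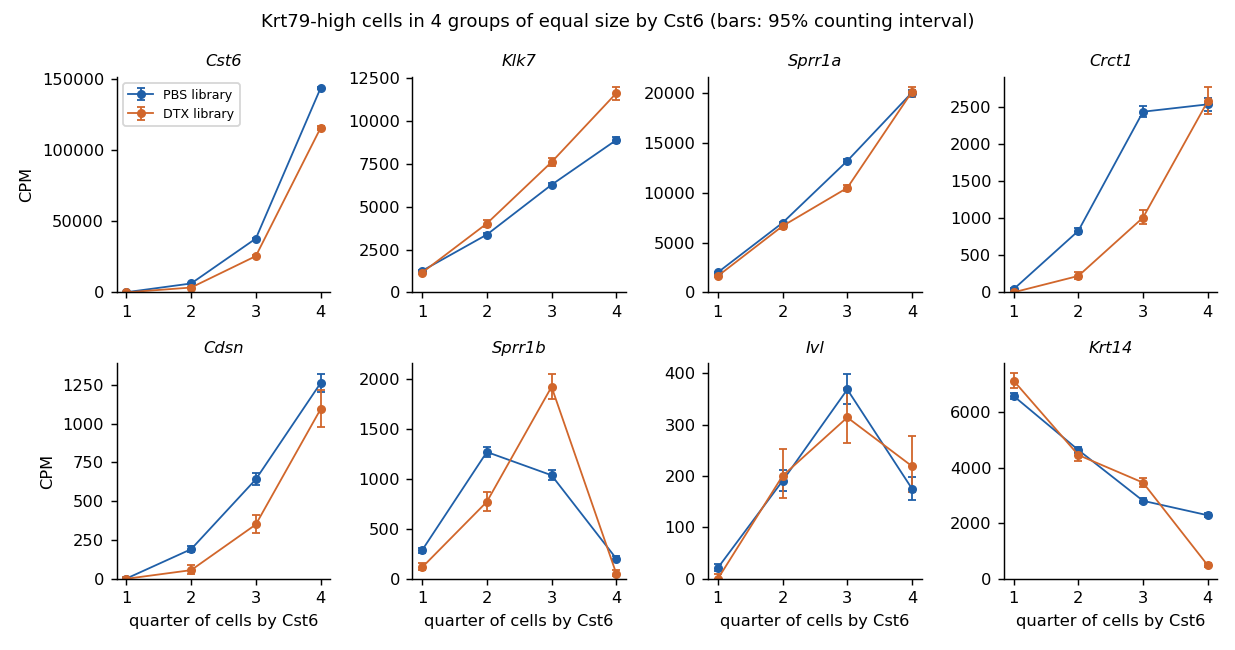
Levels in CPM of 8 genes in Krt79-high cells divided into 4 groups of equal size from the lowest (1) to the highest (4) Cst6, with 95% exact Poisson intervals as bars and a colour per library. Cst6 is given on the full total and the other genes on a total without Cst6. Klk7, Sprr1a and Cdsn go up with Cst6 in both libraries, Sprr1b and Ivl are highest in group 2 or 3, and Krt14 goes down.

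To ask how the genes follow the wound-edge keratins, each state of each library was divided at its median of Krt6a and Krt16 together. Among Krt5/Krt14-high PBS cells, 9 of 21 genes were higher and 2 lower in cells rich in these keratins, beside 0.859% and 1.63% of 8382 genes. The 9 were Sprr1a, Sprr1b, Sprr2d, Sprr2e, Sprr2f, Sprr2h, Lce3c, Lce3d and Calm4. Sprr1a stood at 173 CPM in poor and 691 in rich cells (log2 ratio 2.00, 1.90 to 2.10), Sprr1b at 23.6 and 107 CPM, and Sprr2h at 4.8 and 31 CPM. The 2 lower genes were Cnfn, at 43.7 and 1.9 CPM, and Cst6, at 253 and 96.5 CPM, and neither call was left without the richest cell of each gene. Except for Calm4, the genes called higher were thus of the Sprr and Lce3 groups. Among Krt1/Krt10-high PBS cells 6 of 33 were higher and 2 lower (0.428% and 3.56% of 6545 genes). The 6 were again Sprr2 and Lce3 genes, Lce3e (26.4 CPM in poor and 187 in rich cells), Sprr2i (15.1 and 62.8), Sprr2a3 (27 and 98.4), Lce3d (189 and 513), Sprr2e (72.4 and 172) and Lce3c (293 and 593). The 2 lower genes were Cdsn, at 153 and 50.7 CPM, and Hrnr, at 51.1 and 6.07 CPM. Of the 289 Sprr2i UMIs of Krt1/Krt10-high PBS cells 153 came from a single cell, and of the 796 Lce3e UMIs 247. Without the richest cell of each gene, 7 of 31 genes compared were higher and 3 lower. Summed over the group, Lce genes stood at 606 CPM in poor and 1462 in rich cells, Sprr genes at 9132 and 13023, and the 20 listed genes at 21559 and 21644, so that the sum of the last did not follow these keratins.

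The same division of DTX cells gave 8 higher and 1 lower of 9 genes among Krt5/Krt14-high cells, beside 1.91% and 2.18% of 3349 genes, with Sprr1a at 67.1 and 318 CPM. The 8 were Sprr1a, Sprr2f, Calm4, Cst6, Dsg1a, Klk7, Krtdap and Sbsn, so most were listed genes. No Lce gene was among the 9 compared, since the Lce3 genes together had 1 UMI in these 85 cells. The division of DTX cells thus cannot show whether Lce genes follow these keratins in this state. Cst6 stood at 32.8 and 410 CPM, the reverse of its order in PBS cells. The PBS call was not left without the richest cell, which held 784 of 2034 Cst6 UMIs. In Krt5/Krt14-high DTX cells 95 of 301 Cst6 and 65 of 69 Sprr2f UMIs came from 1 cell each. The reversal of Cst6 was thus not established. The lower gene was Sprr2a3, at 524 and 241 CPM. Without the richest cell of each gene, 7 of 8 genes compared were higher and 0 lower. Among Krt1/Krt10-high DTX cells 3 of 25 were higher (Lce3d, Sprr2f and Sprr2a3) and 9 lower, beside 1.28% and 3.41% of 2113 genes. These rest on 42 cells, and leaving out the richest cell of each gene left 2 of the 9 lower calls.

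In Krt1/Krt10-high cells of the library labelled DTX, 5 of 33 genes were higher and 4 lower than in the library labelled PBS, beside 2.17% and 5.22% of 6784 genes, and the median log2 ratio was -0.26 over the 33 genes and -0.02 over all genes. Krtdap had a log2 ratio of -0.26 (-0.31 to -0.21), Sbsn of -0.29 (-0.34 to -0.25), Sprr1b of -0.25 (-0.33 to -0.18) Sprr1a of -0.46 (-0.51 to -0.42) and Calm4 of -0.65 (-0.70 to -0.59), so that these 5 suprabasal genes were lower, each by less than 2-fold. The higher genes were Lor (3.49), Sprr2a3 (2.55), Hrnr (1.81), Flg (1.68) and Sprr2f (1.41), and the lower ones Lce3e, Lce3d (-1.82), Klk7 (-1.11) and Sprr2i (-1.01). With TMM factors 5 were higher and 6 lower. For Lce3e, 0 UMIs in 42 DTX cells stood against 796 in PBS cells, at least 32.1-fold lower. That bound covers counting error only, and the 796 UMIs lay in 25 of 421 PBS cells, with 247 of them in 1 cell. Without the richest cell of each gene and state Lor turned to -3.67, Hrnr to -3.88 and Flg to -2.81, and the counts became 1 higher and 14 lower, the remaining higher gene being Sprr2a3 at 2.47. Because the DTX library has fewer such cells, leaving out a cell takes a larger share of its UMIs by construction.

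**Figure D5:**
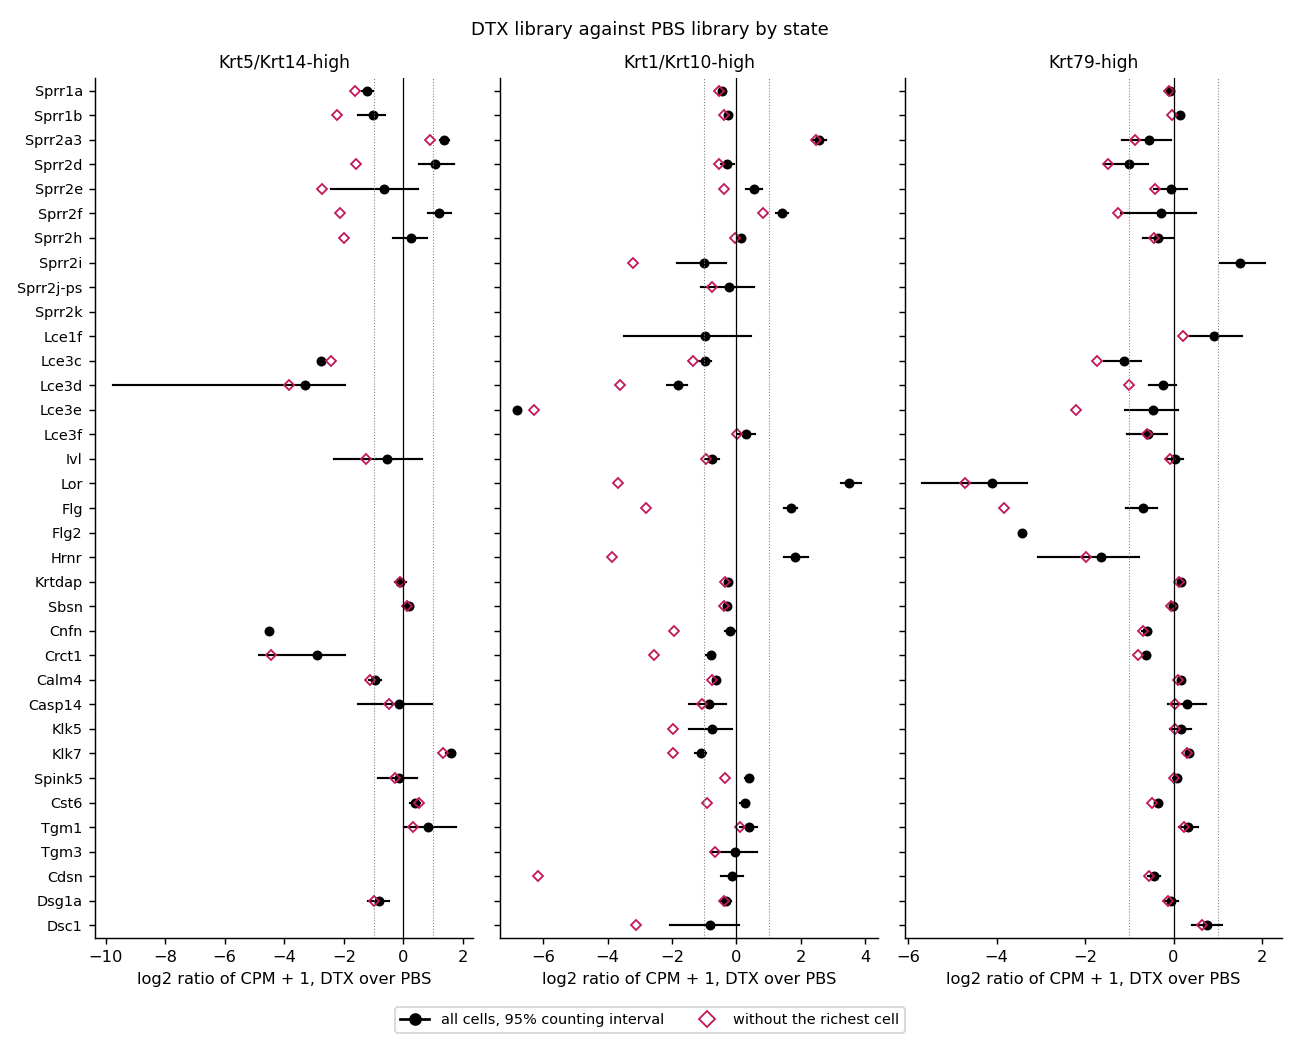
Ratio of levels of the library labelled DTX to the library labelled PBS in 3 keratinocyte states, as log2 of (CPM + 1), for genes with at least 50 UMIs. Black points with 95% counting intervals use all cells (points without a line have 0 UMIs in a library), open diamonds leave out the richest cell of each gene and state, and dotted lines mark 2-fold. Lor, Flg and Hrnr lie above 0 in Krt1/Krt10-high cells with all cells and below -2 without that cell.

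In Krt5/Krt14-high cells 4 of 21 genes were higher and 6 lower in the library labelled DTX, beside 3.87% and 2.88% of 8655 genes. The higher ones were Klk7 (124 CPM in the PBS and 373 in the DTX library), Sprr2a3 (147 and 381), Sprr2f (21.9 and 51.1) and Sprr2d (10.8 and 23.7). Krt5/Krt14-high cells were divided differently between the clusters in the libraries, with 573 PBS and 31 DTX cells in the cluster led by Krt1, Krt10 and Krt16 and 338 and 54 in the one led by Cst6, Krt79 and Klk7. Within the former alone the log2 ratio of Klk7 turned from 1.58 to -3.16. The lower ones were Cnfn, Crct1, Lce3c, Lce3d, Sprr1a (447 and 193 CPM) and Sprr1b (67.5 and 32.6 CPM). For Cnfn and Lce3c, 0 UMIs in the DTX library stood against 258 and 70, at least 9.72-fold and 2.64-fold lower, the Cnfn value resting on the 1 PBS cell with 230 UMIs. The DTX values come from 85 cells, and 94.2% of Sprr2f and 90.6% of Sprr2d UMIs came from 1 cell each, without which their log2 ratios turned from 1.18 to -2.12 and from 1.07 to -1.59. For Sprr2a3 165 of 515 DTX UMIs came from 1 cell. Without the richest cell of each state its log2 ratio went from 1.37 to 0.88, within 2-fold. Leaving out the richest cell of each gene and state gave 1 higher gene, Klk7 at 1.33, and 11 lower. With a limit of 10 rather than 5 Krt79 UMIs per 10000, which moved 7 DTX cells into this state, the counts became 9 higher and 1 lower.

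In Krt79-high cells 1 of 32 genes was higher, Sprr2i (12.2 CPM in the PBS and 36.2 in the DTX library), and 5 were lower, Lor (93.4 and 4.52 CPM), Flg2, Hrnr, Lce3c and Sprr2d, beside 1.5% and 2.04% of 7592 genes. All 56 Sprr2i UMIs of the DTX cells and 57 of the 67 Flg2 UMIs of the PBS cells came from 1 cell each, and without the richest cell of each gene 0 were higher and 8 lower. Cst6 had a log2 ratio of -0.36 (-0.37 to -0.35) and Klk7 of 0.36 (0.33 to 0.39), and Sprr1a of -0.07 (-0.10 to -0.05). The other 26 of the 32 genes were within 2-fold. Summed levels of 8 macrophage markers, all with UMIs in each library, moved with the library, at 52.7, 48.5 and 94.7 CPM in Krt5/Krt14-high, Krt1/Krt10-high and Krt79-high cells of the PBS library and 344, 368 and 440 CPM in the DTX library. Those of 7 fibroblast markers stood at 820, 728 and 739 CPM in the PBS and 548, 51.9 and 156 CPM in the DTX library, where Pdgfra was at 0 in the last 2 states. Their part in the differences between libraries was not tested.

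Other genes of the barrier were followed by lists in the same comparison of Krt1/Krt10-high with Krt5/Krt14-high cells, read beside the same background of 7.4% higher and 18.3% lower. Of 18 genes of barrier lipid synthesis and transport with enough UMIs in the PBS library 17 were higher and 0 lower, and in the DTX library 10 of 12 were higher and 0 lower. Alox12b, which encodes a lipoxygenase of the lipid envelope, had the largest ratio in the PBS library, from 3.01 to 144 CPM (log2 ratio 5.17), and stood at 0 and 88.8 CPM in the DTX library. Of 16 desmosome and scaffold genes 8 were higher and 0 lower (6 and 0 of 10 in the DTX library), and of 11 other proteases and inhibitors 7 were higher and 0 lower (4 and 2 of 7). Wfdc5, a protease inhibitor gene, had 0 UMIs in Krt5/Krt14-high PBS cells and 33 CPM in Krt1/Krt10-high cells. Of 21 regulators 8 were higher and 2 lower (6 and 5 of 20), the lower ones in the PBS library being Notch1, at 60.1 and 16.6 CPM, and Trp63, the master regulator of basal keratinocytes, at 152 and 58.7 CPM. The DTX values were 60 and 5.77 CPM and at 178 and 70.4 CPM. Of 5 tight junction genes 1 was higher in each library, but not the same gene. Each was just past 2-fold, with a log2 ratio of 1.01 in the PBS and 1.025 in the DTX library. Of Krt6b and Krt17, Krt6b was higher in both libraries and Krt17 lower in the PBS library.

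Outside keratinocyte-like cells the level of a gene relative to keratinocyte-like cells was set beside the same ratio for the keratins, where a class held at least 20 UMIs of it, which was so for at most 21 of the 49 genes in any class. In fibroblast-like PBS cells, the ratio of 21 genes with at least 20 UMIs to their keratinocyte level was, at the median, 0.767 of the same ratio for the keratins, and in macrophage-like PBS cells 0.97 over 13 genes. In the DTX library it was 0.606 over 13 genes in macrophage-like and 0.52 over 8 genes in fibroblast-like cells. Other classes had 0 to 7 such genes, with medians from 0.0662 to 99.9, the last from 2 genes of Langerhans-like DTX cells, Lor (192 times, 29 UMIs in 1 cell) and Calm4 (8.18 times, 20 UMIs). Lce1f in fibroblast-like PBS cells (10.1 times, 53 UMIs in 21 cells) and Lce3d in fibroblast-like DTX cells (16 times, 31 of 32 UMIs in 1 cell) were also above it. Tgm1 was above it in several classes. Among DTX cells it had 64 UMIs in 48 of 462 neutrophil-like cells (55.6 CPM, 42.8 to 71), against 104 CPM in keratinocyte-like cells, and after thinning 10.3% (6.49 to 15.3) of neutrophil-like cells had a UMI. Macrophage-like DTX cells held 293 Tgm1 UMIs in 232 cells (9.61 CPM), so that 50.1% of the Tgm1 UMIs of that library lay in keratinocyte-like cells. The ratio of Tgm1 to its keratinocyte level was 50.7 times that of the keratins in neutrophil-like and 21.5 times in macrophage-like DTX cells, and 4.77 times in macrophage-like PBS cells (34 UMIs). The PBS library had 130 neutrophil-like cells with 2 Tgm1 UMIs. Tgm3 had 36 UMIs in 26 macrophage-like DTX cells (24.7 times). Sbsn had 4037 UMIs (115 CPM) in fibroblast-like PBS cells, 3.48 times the keratin ratio, and 890 UMIs in 177 fibroblast-like DTX cells (91.6 CPM), 8.19 times, and 17.1% of the windows near its 3′ end also occur in the transcript Tmem147os.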

How the data were processed

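The 2 libraries, 1 per condition, were made with 10x Chromium 3′ v3 chemistry from live (7AAD-negative) cells. The authors deposited raw UMI counts per gene and cell, which per the labels come from Cell Ranger 6.1.1 and the mm10 genome. The study's methods name another Cell Ranger version, and state technical but no biological replicates. Whether the technical replicates are joined in a library is not given in the sources used here.

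From these counts, cells were left out that had fewer than 500 genes or over 6% of UMIs from mitochondrial genes. The study's methods also set an upper limit of 2000 genes, which would leave 0 Krt5/Krt14-high DTX cells and was used as an alternative. Doublets were called with Scrublet (scanpy 1.11.5), by its threshold in the PBS library (382 cells, 4.59%) and as the top 8% of scores in the DTX library (575 cells). Cells were clustered with Seurat 5.3.0 (2000 variable genes, 30 principal components, resolution 0.2) and classes named from marker lists. UMIs were summed per state and library and given as CPM. Ratios are log2 after adding 1 CPM, for genes with at least 50 UMIs in both groups together, and a call is a ratio past 2-fold. Intervals (exact Poisson for levels, exact conditional binomial for ratios with nothing added, Clopper-Pearson for shares) cover counting error only, and a level of 0 was bounded with 3 counts. No test between conditions was possible with 1 library each. Sums and ratios were computed with Python 3.11.15, numpy 2.4.6, pandas 2.3.3 and scipy 1.17.1, TMM factors with edgeR 4.0.16 in R 4.3.3, and the calculations were tested on simulated data. Figures used matplotlib 3.10.9. Shared 3′ ends were found in GENCODE M21 transcripts as identical windows of 91 bases.

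Named were the 20 listed genes and each Sprr or Lce gene with at least 50 UMIs in keratinocyte-like cells of both libraries, and of the other lists those with the largest ratio in either direction. The genes and lists were chosen with earlier results of these data known. The division by Cst6, the bins without Krt79-high cells, the Krt79-high against Krt1/Krt10-high and Krt79-high library comparisons, the description of Lce1-rich cells, and the alternatives leaving out the richest cell or using a single cluster were added after the data had been seen.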

Additional observations from a re-analysis of the deposited data

Results flagged for a closer look

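For 3 genes the ratio of the library labelled DTX to the library labelled PBS had opposite signs in Krt5/Krt14-high and Krt1/Krt10-high cells with both counting intervals away from 0, and with 1 library per condition the difference was not tested. Klk7 had a log2 ratio of 1.58 in Krt5/Krt14-high cells and of -1.11 in Krt1/Krt10-high cells. Of the Krt5/Krt14-high cells 54 of 85 DTX and 338 of 911 PBS cells lay in the cluster led by Cst6, Krt79 and Klk7, and within the other keratinocyte-like cluster alone the Klk7 value in this state was -3.16, so that the signs were no longer opposite. Sprr2d had 1.07 and -0.28, its Krt5/Krt14-high DTX value resting on 1 cell with 29 of 32 UMIs. Sbsn had 0.18 and -0.29, both within 2-fold.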

How the results depend on the processing

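No paired analysis was possible because each condition is 1 library. Values are numbers of genes past 2-fold and log2 ratios, and the cause of a change was not tested. Adding 0.1 or 5 CPM, state limits of 0.67 and 0.05, keeping doublets, or a total without keratins and these genes moved none of the counts by over 1.5 times, and clustering at resolution 0.5 gave the same keratinocyte-like cells.

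With at most 2000 genes per cell, Krt1/Krt10-high against Krt5/Krt14-high PBS cells had 10 higher and 0 lower of 10 genes, and Krt79-high against Krt5/Krt14-high PBS cells 0 lower. Krt79-high against Krt1/Krt10-high cells had 12 higher and 4 lower in the PBS and 2 and 0 in the DTX library, with Sprr2e turning to 2.67 and Lce3e to 7.74 in the PBS library. In cells rich in Krt6a and Krt16, 2 were higher and 0 lower (Krt5/Krt14-high PBS), 1 and 1 (Krt1/Krt10-high PBS) and 0 lower (Krt1/Krt10-high DTX), with Lce3c at -1.05, Lce3d at -0.15 and the Lce sum at -0.53 in Krt1/Krt10-high PBS cells. Between libraries 1 was higher in Krt1/Krt10-high and 4 in Krt79-high cells, with Sprr2d at 1.64 in the latter. Comparisons with Krt5/Krt14-high DTX cells gave no value, since 0 such cells were left.

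A Krt79 limit of 10 gave 9 higher and 1 lower between libraries in Krt5/Krt14-high cells (Sprr1b 0.82, Lce3d 1.28, Crct1 1.65, Lce sum 0.94) and 0 higher and 9 lower in Krt79-high cells (Sprr2i -3.83). It gave 13 higher (Krt5/Krt14-high DTX), 4 lower (Krt1/Krt10-high PBS) and 1 lower (Krt5/Krt14-high PBS) in Krt6a/Krt16-rich cells, 2 lower in Krt79-high against Krt5/Krt14-high PBS cells, and Sprr2i at -5.28 and Lce3d at -0.077 in that comparison of DTX cells. A Krt79 limit of 2 gave 2 higher and 3 lower between libraries in Krt79-high cells.

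With at least 10 UMIs, 9 were higher (Krt1/Krt10-high), 11 lower (Krt5/Krt14-high) and 13 lower (Krt79-high) between libraries, 14 higher (Krt5/Krt14-high DTX) and 4 lower (Krt1/Krt10-high PBS) in Krt6a/Krt16-rich cells, and 17 higher in Krt79-high against Krt1/Krt10-high PBS cells. At least 200 UMIs gave 0 higher and 3 lower between libraries in Krt79-high cells, 15 higher in Krt1/Krt10-high against Krt5/Krt14-high DTX cells, 14 higher and 1 lower in Krt79-high against Krt5/Krt14-high DTX cells, 3 higher in Krt79-high against Krt1/Krt10-high DTX cells, and 5 higher (Krt5/Krt14-high PBS) and 1 lower (Krt1/Krt10-high PBS) in Krt6a/Krt16-rich cells.

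Up to 10% mitochondrial UMIs gave 1 higher between libraries in Krt5/Krt14-high cells (Lce3c 0.11) and 0 lower in Krt6a/Krt16-rich Krt5/Krt14-high DTX cells, and Lce3d at -1.36 in Krt6a/Krt16-rich Krt1/Krt10-high DTX cells, where it was -2.71 with doublets kept. Keratinocytes chosen by a gate on keratins gave 2 higher and 2 lower (Krt79-high), 2 lower (Krt1/Krt10-high) and 3 lower (Krt5/Krt14-high) between libraries, 4 higher in Krt79-high against Krt1/Krt10-high PBS cells, 0 lower in Krt1/Krt10-high against Krt5/Krt14-high PBS cells, and 0 lower in Krt6a/Krt16-rich Krt5/Krt14-high PBS cells. TMM factors gave 0 lower in Krt1/Krt10-high against Krt5/Krt14-high PBS cells.

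Within the cluster with most Krt1/Krt10-high cells, 2 were higher between libraries in Krt1/Krt10-high cells, Klk7 was -3.16 between libraries in Krt5/Krt14-high cells, 1 was lower in Krt1/Krt10-high against Krt5/Krt14-high DTX cells, and Krt6a/Krt16-rich cells had 6 higher and 0 lower (Krt1/Krt10-high DTX, Crct1 0.52, Spink5 0.26), 5 higher (Krt5/Krt14-high DTX) and 0 lower in both PBS states.

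Thinned to 2000 UMIs, 2 were higher and 2 lower (Krt5/Krt14-high) and 0 higher (Krt79-high) between libraries, 9 higher in Krt1/Krt10-high against Krt5/Krt14-high DTX cells, 0 lower in that comparison of PBS cells, 12 higher and 1 lower in Krt79-high against Krt5/Krt14-high and 3 and 2 against Krt1/Krt10-high DTX cells. Krt6a/Krt16-rich cells then had 0 higher and 3 lower (Krt1/Krt10-high DTX), 2 and 0 (Krt5/Krt14-high DTX), 5 and 0 (Krt5/Krt14-high PBS) and 1 lower (Krt1/Krt10-high PBS).

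Without the richest cell of each gene and state, 1 was higher and 14 lower (Krt1/Krt10-high, with Lor -3.67, Flg -2.81 and Hrnr -3.88), 1 and 11 (Krt5/Krt14-high, with Sprr2d -1.59 and Sprr2f -2.12) and 0 and 8 (Krt79-high) between libraries. In the DTX library 8 were then higher in Krt79-high against Krt1/Krt10-high cells and 1 lower against Krt5/Krt14-high cells. Krt6a/Krt16-rich cells had 2 lower (Krt1/Krt10-high DTX) and 0 lower (Krt5/Krt14-high of both libraries). The DTX values rest on fewer keratinocyte-like cells (235 against 2066), though with more UMIs per cell (median 16070 against 12592).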
